A study of Mus musculus with 8 samples.

Results

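Epcam and 6 other genes for surface antigens of carcinoma cells (Cd24a, Cd44, Prom1, Ceacam1, Cd9 and Cd151) were followed in cells sorted from mouse pancreatic tumours. The 7 genes were taken by symbol from the 24537 genes of the count table. All 7 passed the filter on low counts, as did 14711 genes in all. The tumours arose in mice of strain FVB/NJ that carry a luciferase reporter at Rosa26 and Pdx1-Cre, which drives recombination in the pancreatic epithelium from early development. Each tumour was dissociated whole, and EpCAM+ cells were collected by fluorescence-activated sorting, so the protein product of Epcam itself was the gate. The anti-LIF arm comprised 4 mice (libraries KPCL-PCC_227_GA, then KPCL-PCC_310_GA, then KPCL-PCC_354_GA, then KPCL-PCC_391_GA) given gemcitabine and an antibody that neutralises LIF (leukaemia inhibitory factor, a cytokine of the interleukin-6 family). The IgG arm comprised 4 mice (KPCL-PCC_203_G, then KPCL-PCC_343_G, then KPCL-PCC_345_G, then KPCL-PCC_393_G) given gemcitabine and control IgG. Doses were 50 mg/kg of gemcitabine (days 1 and 4) and 25 mg/kg of either antibody (days 1, 3 and 5). Treatment began at 42 to 43 days of age, and tumours were taken on day 6, when mice were about 48 days old. Each mouse gave 1 library of polyadenylated RNA, and the values of single libraries below follow the order in which they are named here. Every mouse thus had chemotherapy, and an arm without it was not analysed here.

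Measured against the bulk of tested genes, transcripts of 5 of the 7 antigen genes fell in EpCAM+ cells sorted from anti-LIF tumours. These were Epcam, Cd24a, Prom1, Cd44 and Cd151. Of the 7, 0 rose, and Cd9 and Ceacam1 did not pass the test. When libraries were scaled to other epithelial genes instead, the median log2 fold change of all tested genes moved to 0.99. By that scaling Cd44 (0.57) and Ceacam1 (1.18) passed, above 0. Epcam (0.037), Cd24a (0.082), Cd9 (0.20) and Cd151 (0.40) were above 0 and Prom1 (−0.070) below it, without passing. The threshold was an adjusted p of 0.05 in edgeR's quasi-likelihood test, Benjamini-Hochberg adjusted over all tested genes. Of all tested genes, 16.5% fell and 15.7% rose by this test (2428 and 2303 genes, or 3567 and 1430 when libraries were scaled by size alone). Without IgG library KPCL-PCC_343_G, 1507 fell and 1467 rose, and without anti-LIF library KPCL-PCC_354_GA 1521 fell. Prom1 fell 1.99-fold, Epcam 1.88-fold, Cd24a 1.81-fold, Cd151 1.51-fold and Cd44 1.32-fold (n = 4 libraries each). In the same 5 genes all 4 anti-LIF libraries lay below all 4 IgG libraries, as they did in 18.2% of tested genes; the opposite held in 17.6% of tested genes and in 0 of the 7. The median log2 fold change of the 7 genes was −0.70, against −0.0063 over all tested genes. All 39 epithelial marker genes were detected, yet in each of the 8 libraries they took a smaller share of counts (0.256% to 0.931%) than 26 macrophage genes did (1.72% to 5.08%), and both shares differed between the arms. In bulk RNA, fewer cells of a type and less RNA per cell cannot be told apart.

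The 7 antigens belong to several families. EpCAM is a homophilic adhesion protein of epithelial cells that is cut by ADAM proteases and then by γ-secretase, and the released intracellular tail can act with FHL2 in transcription. CD24 is a small, heavily glycosylated protein anchored by glycosylphosphatidylinositol, CD44 is the main receptor for hyaluronan, and prominin-1, the product of Prom1, is a pentaspan protein of membrane protrusions. CEACAM1 is an immunoglobulin-like adhesion molecule with inhibitory signalling motifs, and CD9 and CD151 are tetraspanins, 4-pass membrane proteins that organise integrins and other partners into membrane domains. In pancreatic carcinoma, EpCAM, CD24, CD44 and prominin-1 have been used to sort cells that seed tumours. CD44, CD9 and CEACAM1 are also carried by many leukocytes, whereas EpCAM is largely restricted to epithelium.

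The sequences upstream of the transcription starts are shown for Epcam, Prom1 and Cd151, which fell, and for Ceacam1, which did not pass the test. Those of Cd44, which fell, and Cd9, which did not pass, are described by their motifs only. RefSeq (build GRCm38.p6) gave 250 bases upstream for 6 of the 7 genes, and Cd24a was not matched. The lines below give 5′ to 3′ sequences on the strand of each gene, ending at the base before the start. Capitals mark CACCTG, the E-box bound by SNAI and ZEB repressors, and GGGCGG, the GC box bound by SP factors, each searched on both strands (CAGGTG and CCGCCC are the other strand).
Epcam: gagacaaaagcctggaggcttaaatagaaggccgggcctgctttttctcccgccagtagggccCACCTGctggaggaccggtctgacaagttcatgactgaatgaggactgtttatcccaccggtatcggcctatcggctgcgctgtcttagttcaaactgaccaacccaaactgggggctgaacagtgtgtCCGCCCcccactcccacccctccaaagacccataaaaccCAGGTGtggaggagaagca
Prom1: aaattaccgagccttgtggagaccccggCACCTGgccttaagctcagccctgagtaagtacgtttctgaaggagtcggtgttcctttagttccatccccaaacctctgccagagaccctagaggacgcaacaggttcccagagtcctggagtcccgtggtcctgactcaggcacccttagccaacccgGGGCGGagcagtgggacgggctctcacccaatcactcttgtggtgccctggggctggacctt
Cd151: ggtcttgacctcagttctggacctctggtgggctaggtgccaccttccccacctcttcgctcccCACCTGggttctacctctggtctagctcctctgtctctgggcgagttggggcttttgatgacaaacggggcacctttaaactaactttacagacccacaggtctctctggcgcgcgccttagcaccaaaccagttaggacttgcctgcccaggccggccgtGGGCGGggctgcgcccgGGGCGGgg
Ceacam1: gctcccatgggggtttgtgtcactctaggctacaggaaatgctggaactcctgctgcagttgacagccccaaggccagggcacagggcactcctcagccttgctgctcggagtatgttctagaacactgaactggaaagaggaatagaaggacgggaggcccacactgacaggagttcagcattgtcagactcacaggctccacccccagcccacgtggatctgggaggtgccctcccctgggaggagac
These are chr17:87635729-87635978 on the plus strand, chr5:44101737-44101986 on the minus strand, chr7:141467112-141467361 on the plus strand and chr7:25477626-25477875 on the minus strand. The Epcam window held 2 E-boxes, whose first bases lie 187 and 19 bases before the start, and Prom1, Cd9 and Cd151 held 1 each. Ceacam1 and Cd44 held 0 E-boxes and 0 GC boxes, while Epcam and Prom1 held 1 GC box and Cd9 and Cd151 held 2. Neither motif thus set the genes that fell, Cd44 among them, apart from Cd9 and Ceacam1, which did not pass. Among 32851 promoters of the same length, 17.2% held an E-box and 32.7% a GC box. The motif AACCNGTT of grainyhead-like factors occurred once in Prom1 and once in Cd151, without overlapping an E-box, and in 1.79% of all promoters. TATAAA occurred in 0 of the 6 windows (12.4% of all promoters), and so did the STAT motif TTCNNNGAA (7.02%). A match in these letters is a description of the window and does not show binding.

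Epcam (chromosome 17, 87635979 to 87651127, plus strand, mm10) had 194, 326, 353 and 347 CPM in the anti-LIF libraries, against 561, 664, 595 and 479 CPM in the IgG libraries. CPM here are counts scaled to library size after adjustment by trimmed means of M values (TMM). Library KPCL-PCC_227_GA was lowest by a wide gap, the other 3 anti-LIF libraries lay close together, and the arms did not overlap. The mean was 305 ± 74.8 CPM with anti-LIF and 575 ± 76.8 CPM with IgG (SD, n = 4 each), and the log2 fold change was −0.91 ± 0.20 (SE; 95% interval −1.36 to −0.47; edgeR adjusted p = 0.0102). Without library KPCL-PCC_227_GA the log2 fold change was −0.75 (edgeR adjusted p = 0.0054).

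Cd24a (chromosome 10, 43579169 to 43584265, plus strand) had 133, 271, 286 and 267 CPM in the anti-LIF libraries, against 394, 478, 449 and 412 CPM in the IgG libraries. The same anti-LIF library, KPCL-PCC_227_GA, was lowest, and the arms did not overlap. The log2 fold change was −0.86 ± 0.22 (SE; edgeR adjusted p = 0.0197), and without IgG library KPCL-PCC_343_G, the highest IgG library, it was −0.81 with an adjusted p of 0.0545, past the threshold no longer.

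Prom1 (chromosome 5, 43993622 to 44101736, minus strand) had 28.4, 63.2, 47.6 and 60.0 CPM in the anti-LIF libraries, against 101, 97.4, 103 and 95.4 CPM in the IgG libraries. The IgG libraries lay within a few CPM of each other, whereas the anti-LIF libraries spread over a wide range with KPCL-PCC_227_GA again lowest. The mean was 49.8 ± 15.8 CPM with anti-LIF and 99.3 ± 3.53 CPM with IgG (SD, n = 4 each), the largest difference of the 7 genes at a log2 fold change of −0.995 ± 0.216 (SE; edgeR adjusted p = 0.0107). Leaving out any single library kept Prom1 past the threshold, at −1.12 to −0.80.

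Cd44 (chromosome 2, 102811142 to 102901665, minus strand) had 603, 760, 680 and 822 CPM in the anti-LIF libraries, against 1021, 958, 892 and 922 CPM in the IgG libraries. The arms did not overlap, but the gap between the highest anti-LIF and the lowest IgG library was small. The log2 fold change was −0.40 ± 0.12 (SE; edgeR adjusted p = 0.0327). The call was lost when anti-LIF library KPCL-PCC_310_GA or KPCL-PCC_354_GA, or any 1 of the 4 IgG libraries, was left out, with values of −0.43 to −0.37 and adjusted p of 0.0523 to 0.0837.

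The 2 tetraspanins differed in how evenly the libraries behaved. Cd151 (chromosome 7, 141467362 to 141471481, plus strand), the laminin-integrin partner, had 129, 141, 134 and 147 CPM in the anti-LIF libraries, against 211, 213, 188 and 219 CPM in the IgG libraries. Libraries of each arm lay close together, and Cd151 had the smallest standard error of the 7 genes (log2 fold change −0.59 ± 0.080 SE; edgeR adjusted p = 0.00347). Cd9 (chromosome 6, 125460266 to 125494755, minus strand) had 123, 326, 197 and 296 CPM in the anti-LIF libraries, against 281, 452, 371 and 423 CPM in the IgG libraries. Its arms overlapped, with 2 anti-LIF libraries above the lowest IgG library. The log2 fold change of Cd9 was −0.70 ± 0.29 (SE; 95% interval −1.36 to −0.04; edgeR adjusted p = 0.0954), a wider error about a difference larger than that of Cd151.

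Ceacam1 (chromosome 7, 25461702 to 25477625, minus strand) had 68.8, 62.8, 57.5 and 56.1 CPM in the anti-LIF libraries, against 58.3, 45.5, 53.6 and 61.9 CPM in the IgG libraries. The arms overlapped, and library KPCL-PCC_227_GA, the lowest of the anti-LIF arm for the 6 other genes, was the highest for Ceacam1. The log2 fold change was 0.16 ± 0.11 (SE; 95% interval −0.09 to 0.42; edgeR adjusted p = 0.300), and it turned to −0.0041 when libraries were scaled by size alone. Of the 50-base stretches of Ceacam1 transcripts, 29.6% also occur in Ceacam2, a neighbouring copy. Ceacam2 itself had 0.275 CPM with anti-LIF and 0.172 CPM with IgG, too few reads for the test. Shared stretches were also counted over all other genes, on both strands. They came to 30.4% for Ceacam1, 14.4% for Cd9, 5.10% for Prom1, 4.80% for Cd151, 2.75% for Cd24a and 0% for Epcam and Cd44. Prom1, Cd9 and Cd151 overlap an exon of a gene on the opposite strand over 4.93%, 10.7% and 7.04% of their exonic bases. Reads there cannot be told apart if counting ignored strand. These opposite-strand genes (Gm16401, Gm26728 and Gm10575) also share the most stretches with Prom1, Cd9 and Cd151 (4.16%, 8.48% and 4.80%). The overlap and the shared stretches are thus in part the same bases.

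**Figure D1:**
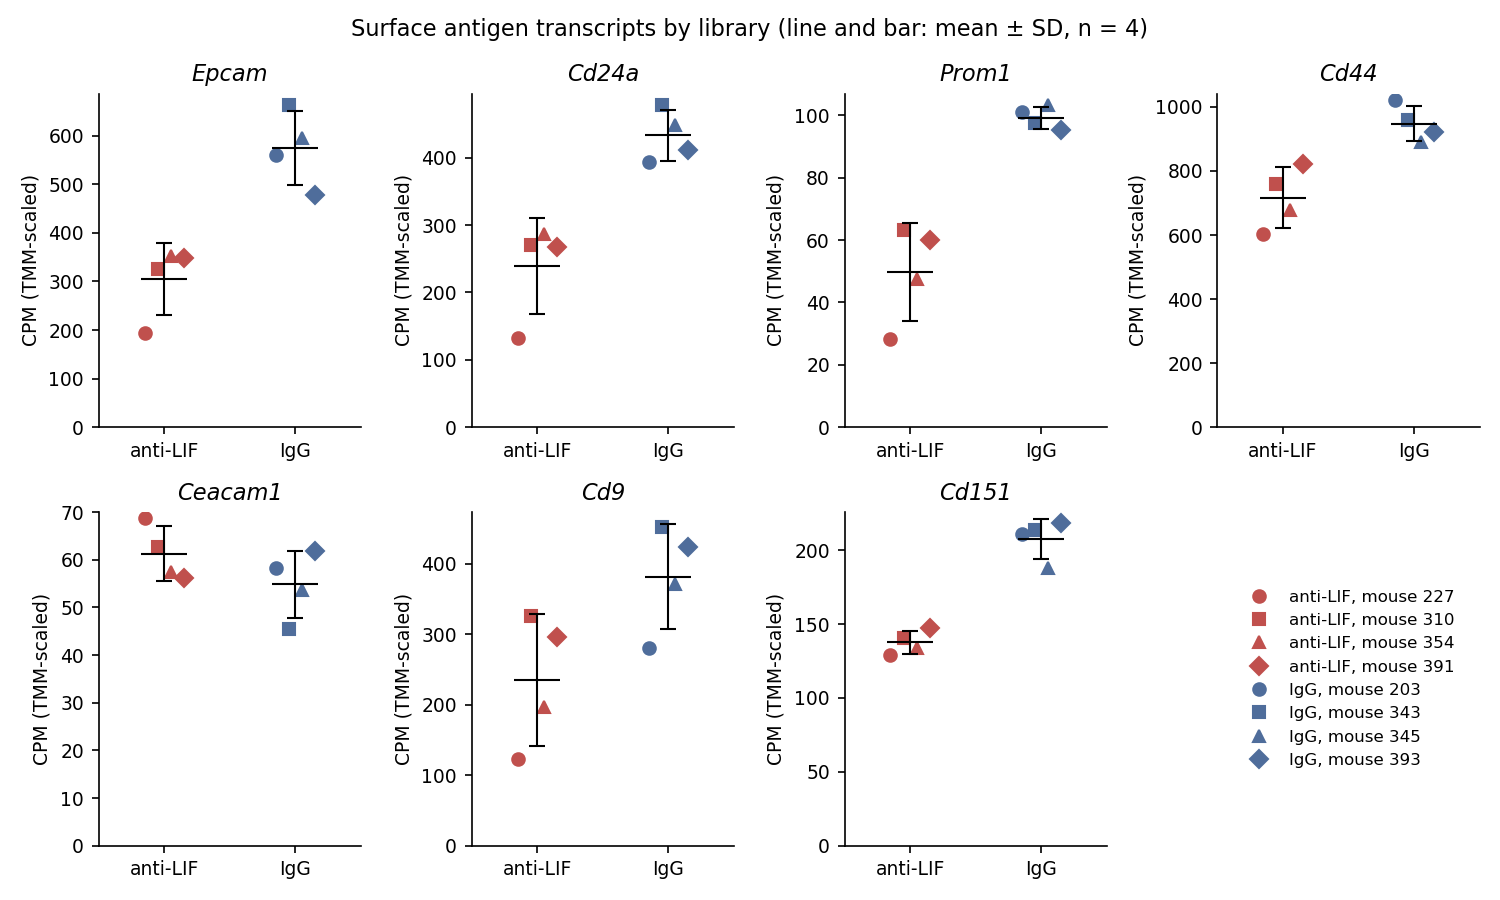
Each panel plots 1 antigen gene in TMM-scaled CPM for the anti-LIF libraries on the left and the IgG libraries on the right (n = 4 each), with a symbol for each mouse and lines for the mean ± SD. Anti-LIF mouse KPCL-PCC_227_GA is lowest in 6 panels and highest for Ceacam1, and the arms overlap only for Ceacam1 and Cd9.

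**Figure D2:**
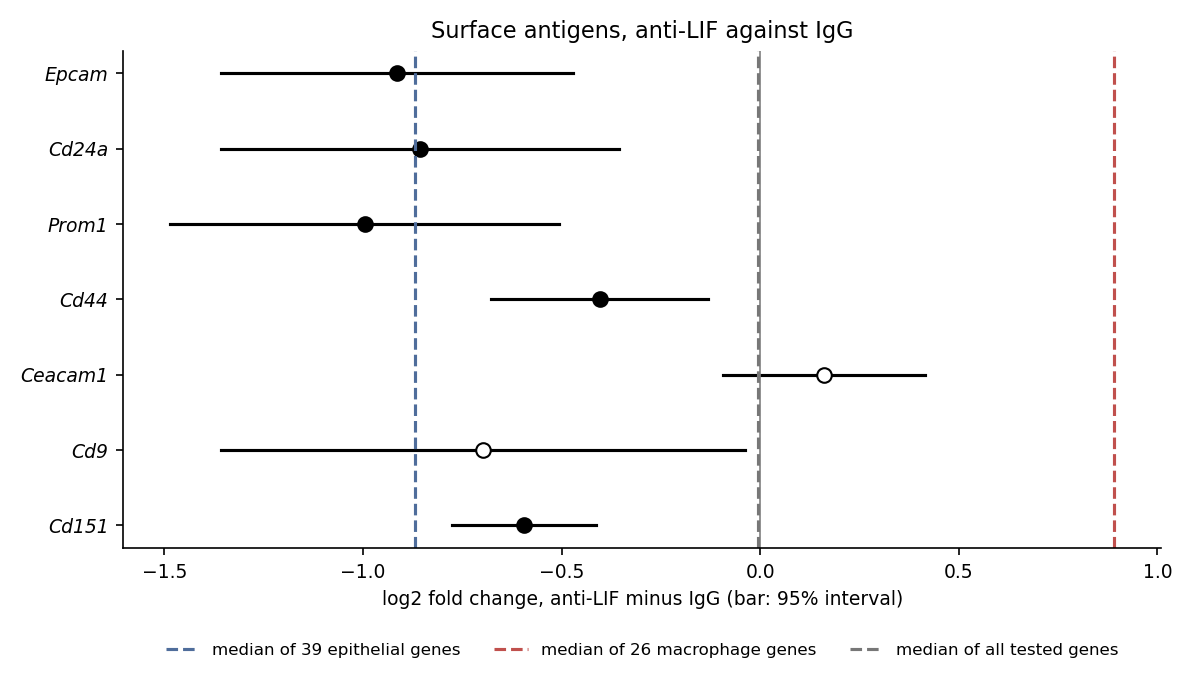
The plot gives the log2 fold change, anti-LIF minus IgG, of each antigen gene with its 95% interval, filled where the edgeR adjusted p is under 0.05, beside dashed lines for the medians of the epithelial list, the macrophage list and all tested genes. Epcam at −0.91 and Cd24a at −0.86 lie near the epithelial median of −0.87, and Ceacam1 at 0.16 lies near the median of all genes. Scaled to the epithelial list, which moves the median of all genes to 0.99, values other than that of Prom1 lie above 0. Of these, only Cd44 and Ceacam1 pass.

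Levels were compared between genes only per length, in deposited FPKM. In anti-LIF libraries the order by mean FPKM was Cd9 (153.9 ± 66.2), Epcam (114.7 ± 33.2), Cd44 (111.0 ± 19.8), Cd24a (102.0 ± 34.5), Cd151 (60.5 ± 6.34), Ceacam1 (13.6 ± 0.794) and Prom1 (10.7 ± 3.76; SD, n = 4). All neighbours in that order overlapped between libraries except Cd151 and Ceacam1. In IgG libraries the order was Cd9 (267.9 ± 49.0), Epcam (232.8 ± 26.5), Cd24a (198.5 ± 11.3), Cd44 (157.0 ± 11.7), Cd151 (99.6 ± 8.88), Prom1 (22.9 ± 1.06) and Ceacam1 (13.2 ± 2.14; SD, n = 4). There, overlap was limited to Cd9 with Epcam and Epcam with Cd24a, although Epcam was above Cd24a within 4 of 4 IgG libraries. By these means, Cd44 and Cd24a changed places between the arms, as did Ceacam1 and Prom1.

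The deposited FPKM use a shorter transcript than the counts for Cd44, Prom1, Ceacam1 and Cd151. The difference in reads gives the net share outside the shorter one, a comparison chosen after the values were seen. It does not place reads in particular exons. For Cd44 the lengths of the 2 transcripts differ by 1235 bases. The net difference in reads made up 10.9% ± 0.948 of the Cd44 reads in anti-LIF libraries and 12.5% ± 1.55 in IgG libraries (SD, n = 4 each, exact permutation p = 0.171). For Ceacam1 the share outside the shorter transcript was 8.18% ± 0.517 with anti-LIF and 9.27% ± 0.602 with IgG (SD, n = 4 each; p = 0.0571 in the same exact test, 0.229 adjusted over 4 genes). The shares of Prom1 (2.49% with anti-LIF and 2.48% with IgG) and Cd151 (4.69% with anti-LIF and 4.86% with IgG) gave exact permutation p of 0.943 and 0.714. 

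Whether 2 antigens responded alike was tested on their log2 ratio within each library, which does not depend on how libraries are scaled. Epcam over Cd24a had 0.54, 0.27, 0.30 and 0.38 in the anti-LIF libraries, against 0.51, 0.47, 0.41 and 0.22 in the IgG libraries, a difference of −0.03 (exact two-sided permutation p = 0.771). The ranges overlapped in part, with KPCL-PCC_227_GA above all IgG libraries and KPCL-PCC_393_G below all anti-LIF libraries. In 7 of 21 pairs the ratio did not overlap between the arms, no larger a share than the 35.1% among all pairs of tested genes. The 7 pairs were Ceacam1 with each of Epcam, Cd24a, Cd44, Prom1 and Cd151, and Cd44 with Epcam and Prom1. The log2 ratio of Prom1 to Ceacam1 differed by −1.22 between the arms, that of Epcam to Ceacam1 by −1.11 and that of Epcam to Cd44 by −0.53. Each reached the smallest p that 70 assignments allow, 0.0286 in an exact permutation test. After adjustment over the 21 pairs this was 0.0857, and 0 pairs passed. With so few assignments pairs could hardly pass after this adjustment, so the result does not show that antigens responded alike.

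The antigens were then set against 39 other epithelial genes (keratins, claudins, desmosome and tight junction genes, none of the 7) by subtracting the mean log2 CPM of that list in the same library. The list mean was 5.45 ± 0.32 in anti-LIF libraries and 6.33 ± 0.075 in IgG libraries (SD, n = 4 each), a difference of −0.88. Measured this way, Epcam differed by −0.06 (exact permutation p = 0.771), Cd24a by −0.03 (p = 0.914 in the same exact test), Prom1 by −0.18 (exact p = 0.171) and Cd9 by 0.11 (exact p = 0.657), each within the spread between libraries. Cd44 stood higher above the list in every anti-LIF library (4.237, 3.854, 3.993 and 4.034) than in every IgG library (3.571, 3.596, 3.555 and 3.520), a difference of 0.47. Ceacam1 stood at 1.11, 0.26, 0.43 and 0.16 in the anti-LIF libraries and at −0.56, −0.80, −0.50 and −0.37 in the IgG libraries, a difference of 1.05. Both had an exact permutation p of 0.0286, the smallest possible, and 0.0412 adjusted over all tested genes. Against the same list, 68.2% of tested genes were higher in all 4 anti-LIF libraries than in all 4 IgG libraries, and 1.22% were lower. Cd151 differed by 0.29 with overlap (exact permutation p = 0.0857).

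**Figure D3:**
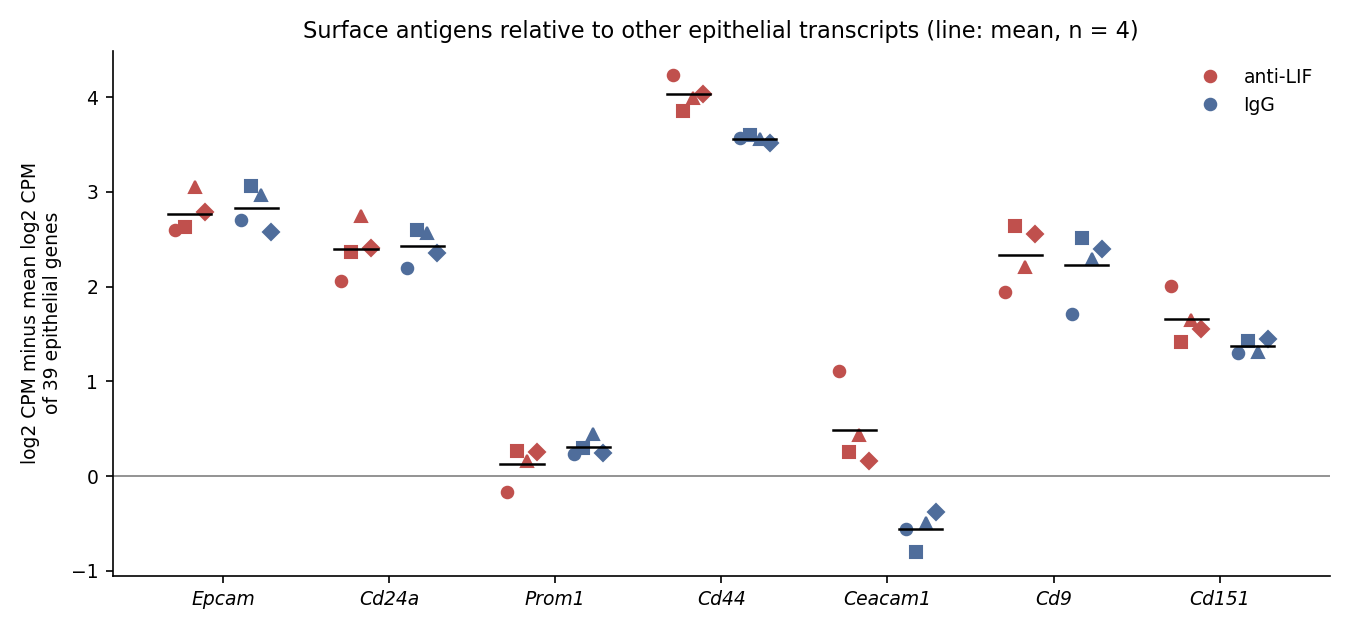
The vertical axis is the log2 CPM of each antigen minus the mean log2 CPM of 39 epithelial genes in the same library, with anti-LIF left of IgG for each gene, a symbol for each mouse and a line for the mean (n = 4). The arms overlap for Epcam and Cd24a, while Cd44 and Ceacam1 sit higher in all 4 anti-LIF libraries.

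Markers of other cells moved with the same arms. The epithelial list took 0.393% ± 0.103 of counts in anti-LIF libraries and 0.842% ± 0.0701 in IgG libraries (SD, n = 4 each), and 32 of its 39 genes fell and 0 rose, among them Krt18 at −1.13 and Krt19 at −1.18. A list of 26 macrophage genes took 3.24% to 5.08% of counts in anti-LIF libraries and 1.72% to 2.22% in IgG libraries, and 20 of the 26 rose and 0 fell, with a median log2 fold change of 0.89. Lyz2, the macrophage lysozyme, averaged 13510 CPM with anti-LIF and 4177 CPM with IgG, and Ptprc, which encodes the leukocyte antigen CD45, 511 CPM with anti-LIF and 281 CPM with IgG. A list of 28 acinar genes took 0.360% to 1.92% of counts in anti-LIF libraries and 0.0481% to 0.251% in IgG libraries, and 22 of its 27 tested genes rose. The lymphoid list took 0.00647% of counts with anti-LIF and 0.00287% with IgG. Each of these 4 shares had an exact permutation p of 0.0286, or 0.0643 adjusted over 9 lists. Among the defining markers, Amy2a5 of acinar cells and Ncr1 of natural killer cells were at 0 in every library. The shares of the neutrophil, fibroblast, endothelial, platelet and endocrine lists gave exact permutation p of 0.4 to 0.857. Of their genes, 3 of 7 tested platelet genes fell and 0 rose (median −0.83), 2 of 15 fibroblast genes and 1 of 7 neutrophil genes rose, 1 of 13 endothelial genes rose and 1 fell, and 0 of 11 endocrine genes passed by edgeR adjusted p, with 1 at an unadjusted p under 0.05. Over all tested genes, 16.5% fell and 15.7% rose. Library KPCL-PCC_227_GA, lowest for Epcam and Cd24a, had both the smallest epithelial and the largest macrophage share. With the macrophage score as a covariate, Epcam had a log2 fold change of 0.03, Cd24a 0.42, Cd44 0.05, Prom1 0.07 and Cd9 1.01. Cd151 at −0.22 and Ceacam1 at −0.15 were below 0 in that fit. With the acinar score Epcam had −0.69, Cd24a −0.66, Cd44 −0.27, Prom1 −0.78, Cd151 −0.49, Ceacam1 −0.13 and Cd9 0.10. In both covariate fits 0 of all tested genes passed edgeR's adjusted test (875 and 962 had an unadjusted p under 0.05). Neither score overlaps between the arms, so their part cannot be told apart from that of the antibody.

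**Figure D4:**
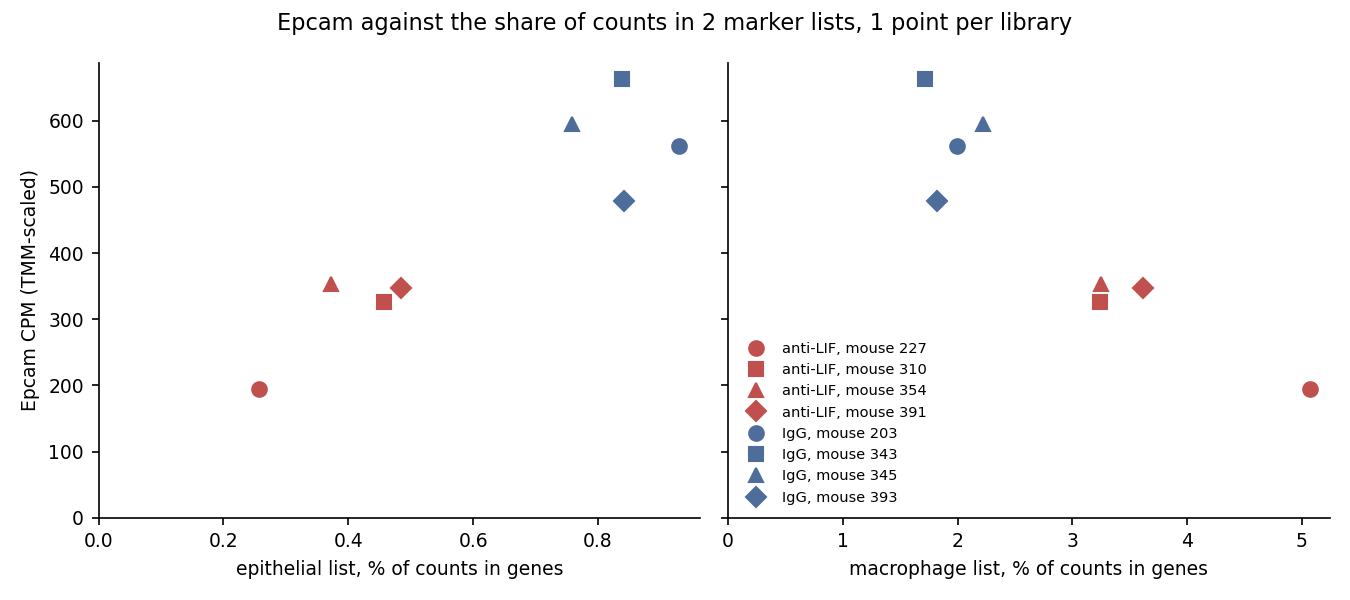
Epcam in TMM-scaled CPM is plotted for each library against the percentage of its counts in the epithelial list (left panel) and in the macrophage list (right panel), with a symbol for each mouse. The 4 anti-LIF libraries lie between 194 and 353 CPM, with epithelial shares of 0.256% to 0.484%, and the 4 IgG libraries lie between 479 and 664 CPM, with shares of 0.759% to 0.931%.

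The profile of each antigen across the 8 libraries was compared with 10174 genes of at least 10 mean CPM by the root mean square difference of centred log2 CPM, in which the arms take part, so likeness is a description. Nearest to Epcam were Spint1, a membrane inhibitor of serine proteases (0.0712), Nckap1 of the WAVE complex (0.0823), the E-cadherin gene Cdh1 (0.1005), Myo5b (0.103) and Serpini1 (0.109), where the median gene was at 0.591. Nearest to Cd24a were Gsn, which encodes the actin-severing protein gelsolin (0.107), Nckap1 (0.1104) and Bmpr1a (0.115). For Prom1 they were Serinc2, Xrcc5 and Atp1b1, and for Cd9 Gcnt2, Slc7a11 and Tnik. For Cd44 they were Ddb1, Maged2 and Sgsm2, and for Cd151 2810403A07Rik, Pnpla6 and Trp53bp2. Ceacam1 was nearest to Syvn1 (0.0285), Hcfc2 and Smim1, none of which passed the test between the arms. Between the antigens, Epcam and Cd24a (0.111) and Cd44 and Cd151 (0.126) were closest, and Prom1 and Ceacam1 (0.734) were farthest apart.

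Of the partners and processing enzymes of EpCAM, 10 of 17 fell and 1 rose, with a median log2 fold change of −0.64; 7 of the 17 are also in the epithelial list. Here and in the lists that follow, directions are relative to all tested genes, of which 16.5% fell and 15.7% rose. Scaled to the epithelial list, 67 of the 122 tested partner genes rose and 3 fell, against 13 and 46 by the main scaling. By the same epithelial scaling, 11143 of all 14711 tested genes rose and 187 fell. Cldn7, the claudin that binds EpCAM, averaged 58.6 ± 14.5 CPM with anti-LIF and 102 ± 13.9 CPM with IgG (log2 fold change −0.80, edgeR adjusted p = 0.0118). Cldn4 and Cldn3 fell by 1.30 and 1.17 on the log2 scale, and Fhl2, the partner of the EpCAM tail, fell by 1.24. Adam17, a sheddase, rose by 0.79 (206 ± 14.5 CPM with anti-LIF and 119 ± 7.54 CPM with IgG), while Adam10, another sheddase, did not pass (0.09).

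Among the other tetraspanins the directions were mixed, with 7 that rose and 6 that fell of 26 tested of 29 listed (median −0.06; over all tested genes 15.7% rose and 16.5% fell). Cd81, a partner of CD9 in many cells, rose by 0.49, and so did Tspan31 by 0.56 and Tspan32, a tetraspanin of blood cells, by 1.05. Cd37 and Cd53, leukocyte tetraspanins named after their values were seen, rose by 0.89 and 0.59. Tspan7 fell by 0.76, and Cd63 at 0.21 did not pass (edgeR adjusted p = 0.257). Of the proteins that tetraspanins bind, 10 of 14 fell and 0 rose (median −0.68). The laminin-binding integrin chains that pair with CD151 were among them, with Itga3 at −0.77, Itga6 at −0.44, Itgb1 at −0.44 and Itgb4 at −0.69. Ptgfrn, a main partner of CD9, averaged 230.4 ± 38.0 CPM with anti-LIF and 355 ± 29.0 CPM with IgG (−0.63), and Igsf3, Itga7 and the laminin receptor Bcam fell by 0.96, 1.10 and 0.84. The call of Itga3 came with overlapping arms.

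Among 6 tested genes of 16 listed around CEACAM1, 1 rose and 1 fell, too few to set against the shares over all tested genes. Ptpn6, the SHP-1 phosphatase of leukocytes that binds its tail, rose by 0.92, and Ceacam16 fell, with 0.860 CPM with anti-LIF and 4.56 CPM with IgG. Ptpn11 (SHP-2) at −0.14 and Src at −0.12 did not pass. In the hyaluronan and CD44 list, 3 of 20 tested genes rose and 2 fell (median −0.06), no larger a share than among all tested genes (15.7% rose and 16.5% fell). The 3 that rose were Stab1 and Lyve1, scavenger and hyaluronan receptors that some macrophages also carry, at 2.47 and 2.90, and the hyaluronidase gene Tmem2 at 0.91, the last named after its value was seen. Ezr, the ezrin gene that links CD44 to actin, fell by 0.81 and Hyal1 by 0.76. Spp1, which encodes the CD44 ligand osteopontin, had 2591 CPM with anti-LIF and 2131 CPM with IgG and did not pass (edgeR adjusted p = 0.346). Of 5 tested genes related to CD24 or prominin (median 0.70), 1 rose and 0 fell, too few to set against the shares over all tested genes. The kinase gene Lyn rose by 0.70, and Siglecg, a CD24 receptor of B cells and other leukocytes, had 10.7 ± 5.41 CPM with anti-LIF and 4.22 ± 3.04 CPM with IgG (edgeR adjusted p = 0.0814). Prom2, the other prominin gene, had 0.406 CPM with anti-LIF and 0.616 CPM with IgG and was too low to test.

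Of 34 further carcinoma surface antigens, 17 fell and 0 rose (median −0.70), where 16.5% of all tested genes fell and 15.7% rose. Of the 34, 2 are in the epithelial list as well. Itgb6 fell by 0.93, Erbb3 by 1.23, Sdc1 by 1.18 and Ephb2 by 0.89 on the log2 scale, and Cdh1 averaged 489 ± 127 CPM with anti-LIF and 889 ± 120 CPM with IgG (−0.86). Over the 7 partner lists together, each gene once, 46 of 122 tested genes fell and 13 rose, with a median of −0.33. The shares over all tested genes were 16.5% and 15.7% in that order.

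**Figure D5:**
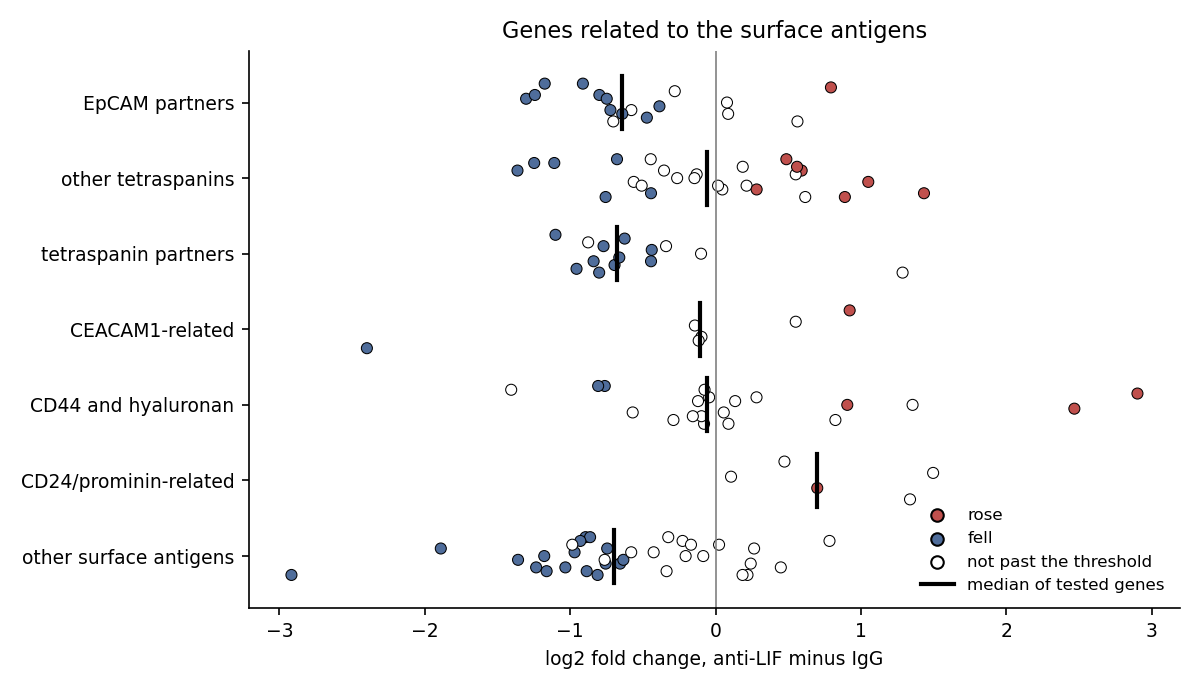
Each point is a tested gene of 1 of the 7 partner lists at its log2 fold change, anti-LIF minus IgG, coloured by whether it rose, fell or did not pass edgeR's adjusted test, with a bar at the list's median. The medians of the EpCAM partners (−0.64), tetraspanin partners (−0.68) and other surface antigens (−0.70) lie below 0. Those of the other tetraspanins and of the CD44 and hyaluronan list (−0.06 each) and of the genes around CEACAM1 (−0.11) lie near it. That of the 5 genes related to CD24 or prominin (0.70) lies above it. Scaled to the epithelial list, most partner genes that pass lie above 0, as do most of all tested genes that pass (11143 rose and 187 fell).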

How the data were processed

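Messenger RNA of 8 sorted tumour samples was sequenced. Per the submitters' processing notes, reads were checked with FastQC 0.11.2, aligned to mm10 with STAR 2.4.0k and counted with HOMER, and edgeR 3.6.8 was named for the authors' own comparison. Per the file headers, the deposited counts are raw exonic read counts, 1 transcript per gene. The deposited FPKM values matched those counts scaled by transcript length and header total within 0.002 FPKM for all 168000 values of 21000 shared transcripts. Strand setting, annotation version and read filters remain not given in the sources used here. Counts in genes ran from 15135457 to 18972281 per library, of header totals of 18954525 to 24681702, and 0 columns of single samples were unused.

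Counts were fitted in R 4.3.3 with edgeR 4.0.16 (filterByExpr, TMM, quasi-likelihood test) and limma 3.58.1 or DESeq2 1.42.0 as alternatives. Exact permutation tests over 70 assignments and figures used Python 3.11.15. Log2 CPM used a prior count of 2. Members against epithelial genes had been planned with adjustment over the 7 members; adjustment over all tested genes is given instead. The 7 genes and all lists were chosen with earlier results of these data known. Other genes are the planned ones (up to 4 lowest p per partner list, nearest profiles, markers) unless said otherwise. Labels give 1 mouse per library, and nothing says whether mice shared a litter or day. Data of 4 libraries per arm were simulated over 14547 genes, of which only the planted ones changed. There edgeR called 19.4% of 67 genes with a planted 1.5-fold change, 61.2% of 67 with a 2-fold and 95.5% of 66 with a 4-fold change. Of its 122 calls, 5 were false. In the data themselves 32.2% of tested genes were called, so these rates need not hold there. Further alleles of the mice and some listed genes are not reported here.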

Additional observations from a re-analysis of the deposited data

Results flagged for a closer look

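In 2 of 14 sets of 4 libraries (7 genes in each arm), 1 library stood apart from the other 3 by a gap larger than Dixon's 95% critical value, which chance gives in about 1 of 20 such sets. Both were anti-LIF library KPCL-PCC_227_GA. Epcam was at 194 CPM there and at 326 to 353 CPM in the other anti-LIF libraries. Cd24a was at 133 CPM in library KPCL-PCC_227_GA and at 267 to 286 CPM in the others. The same library held the largest macrophage share, 5.08% of counts, and the smallest epithelial share, 0.256%; the part of these shares in the 2 low values was not tested. Without library KPCL-PCC_227_GA, the log2 fold changes were −0.75 for Epcam (edgeR adjusted p = 0.0054) and −0.66 for Cd24a (0.0041).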

How the results depend on the processing

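No paired analysis was possible because the arms share no mouse number. Over 10 alternatives of scaling, filter, test and unit, Epcam (−1.07 to −0.80), Cd24a (−1.04 to −0.73), Cd44 (−0.55 to −0.34), Prom1 (−1.18 to −0.88) and Cd151 (−0.75 to −0.55) passed in all, and Cd9 (−0.90 to −0.54) in none. Ceacam1 turned to −0.0041 with library size alone, which shifted the median of all genes to −0.16 and left 1430 genes that rose and 3567 that fell; log2(FPKM + 0.1), with a median of −0.13, gave 1535 and 3344.

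Leaving out each library in turn gave 1467 to 2218 genes that rose and 1507 to 2136 that fell, against 2303 and 2428. Counts were lowest without IgG library KPCL-PCC_343_G, and 1521 fell without anti-LIF library KPCL-PCC_354_GA. In the partner lists 11 to 16 rose and 33 to 47 fell. Epcam ran from −0.99 to −0.75, Cd24a from −0.95 to −0.66, Cd44 from −0.48 to −0.33, Prom1 from −1.12 to −0.80, Ceacam1 from 0.080 to 0.22, Cd9 from −0.89 to −0.48 and Cd151 from −0.64 to −0.56. Epcam, Prom1 and Cd151 passed in 8 of 8, Cd24a in 7, Cd44 in 2 and Cd9 in 0. Without anti-LIF library KPCL-PCC_227_GA and IgG library KPCL-PCC_203_G together, an alternative chosen after seeing the data, Cd44 was −0.29 (adjusted p = 0.0856).

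With the macrophage score as a covariate, 0 genes rose or fell overall and 0 in the partner lists, and the values were 0.031 for Epcam, 0.42 for Cd24a, 0.049 for Cd44, 0.074 for Prom1, −0.15 for Ceacam1, 1.01 for Cd9 and −0.22 for Cd151. With the acinar score the counts were also 0, and the values were −0.69, −0.66, −0.27, −0.78, −0.13, 0.10 and −0.49 in the same order of genes. Scaled to the epithelial list (median of all genes 0.99), 11143 genes rose and 187 fell, 67 and 3 in the partner lists, and the values were 0.037, 0.082, 0.57, −0.070, 1.18, 0.20 and 0.40, of which Cd44 (adjusted p = 0.0254) and Ceacam1 (0.000556) passed. Scaled to the macrophage list (median −1.08), 187 rose and 11971 fell, 2 and 97 in the partner lists, and the values, all 7 past the threshold, were −1.93, −1.86, −1.46, −1.997, −0.93, −1.71 and −1.67. The cause of these shifts was not tested.

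Pair ratios could hardly pass after adjustment over 21 pairs with so few assignments, so their p say nothing of stability. Epcam over Cd24a ran from −0.090 to 0.0077 with each library left out (0.0066 without anti-LIF library KPCL-PCC_310_GA, 0.0077 without IgG library KPCL-PCC_203_G) and Cd9 over Cd151 from −0.36 to 0.067. Against the epithelial genes, Epcam ran from −0.15 to 0.017, Cd24a from −0.15 to 0.079 and Cd9 from −0.066 to 0.24 with each library left out. Against the list's sum, Epcam was at 0.037 and Cd24a at 0.065, and against Krt8 and Krt18, Epcam was at 0.19, Cd24a at 0.22 and Prom1 at 0.072. With each library left out, Cd44 ran from 0.40 to 0.53, Ceacam1 from 0.84 to 1.16 and Cd151 from 0.17 to 0.37.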
